A study of Homo sapiens with 3 samples.

Results

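Glycolysis, glucose uptake and hypoxia genes were followed across 3 Affymetrix array libraries of GFP-SAS, as the labels call the cells used, which belong to SAS, a long-established line from a carcinoma of the human tongue. The set was a named list of 39 genes, chosen with earlier results of these data known. It ran from the glucose transporters and the glycolytic enzymes to the hypoxia-inducible factor HIF1A and genes HIF1A is known to induce. For 35 of them the array held at least 1 probe set annotated to that gene alone, among 18239 genes with such a probe set in all, and the brightest by mean log2 value stood for the gene. SLC2A3, SLC16A1, SLC16A3 and CA9 had none in the tables used here and were not analysed as genes. EGLN3 and ANGPTL4 lay below the filter level of log2 3.93 (the 30th percentile of all genes), which left 33 members among the 12779 genes tested.

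The cells received an siRNA, a short double-stranded RNA that leads to the cutting of mRNAs it matches, at 10 nM for 24 h before RNA was taken. The control library received a non-targeting siRNA, siNT, and the others siAkt1-22 or siAkt1-58, each directed against AKT1, with 1 library per siRNA. The labels mention no low oxygen, describe air with added CO2 for all cells, and do not say whether the libraries came from separate cultures or whether GFP-SAS is a single clone. Because each difference from siNT uses the same control library, the siAkt1-22 and siAkt1-58 values are set side by side and not taken as independent of each other. Values below are log2 expression values, or log2 differences from siNT where a sign is given. An SD, where given, is the spread between the siAkt1-22 and siAkt1-58 differences and leaves out any error in siNT.

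Glycolysis splits glucose into pyruvate, which becomes lactate or enters the mitochondrion. AKT kinases are known to promote glucose uptake and hexokinase activity in many cells. HIF1A protein is destroyed when oxygen is present, through hydroxylation by EGLN enzymes and capture by VHL, so its activity is set largely at the protein level, which arrays do not read. When stable, it induces most glycolytic genes together with genes for angiogenesis, collagen modification and mitophagy, by binding ACGTG cores in promoters and enhancers.

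AKT1, the target, read 6.75 with siNT, 3.67 with siAkt1-22 and 3.47 with siAkt1-58. The related kinase AKT2 read 7.71, 6.74 and 7.69 in its brightest probe set, so it was lower in the siAkt1-22 library as well. Of its 8 probe sets above the filter level, 3 were lower with siAkt1-22, 1 was higher and the rest lay within 0.05 of siNT. Median log2 values over 49386 probe sets were 4.58 to 4.59, and the number of arrays limits precision. Bacterial poly-A transcripts, a labelling control, stood at a median of -0.56 with siAkt1-22 (24 probe sets, from -1.25 to -0.35) and -0.013 with siAkt1-58. Hybridisation controls stood at -0.041 and 0.080. The difference between the 3' and 5' control probe sets of ACTB, an actin gene and a sign of RNA quality and of its own level, was larger in the siAkt1-22 library (2.07) than in the siNT (1.24) and siAkt1-58 (1.17) libraries; ACTB itself was far lower in the siAkt1-22 library (9.10 against 12.3 at the 3' set). For GAPDH, a member, the same 3' to 5' difference was -0.0092, -0.013 and -0.043. Of 12 squamous epithelial markers 9 were measured and 8 lay above the filter level. Of 6 fibroblast markers 1 did, of 6 leukocyte markers 1 (CD68, at 0.42 and 0.81) and of 4 endothelial markers 2. The summed log2 values of the measured markers ran from 84.9 to 87.0 for epithelium, 20.7 to 20.8 for fibroblasts, 22.1 to 23.0 for leukocytes and 15.8 to 16.1 for endothelium.

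At a 2-fold limit the members that stood out did so with 1 siRNA, mostly siAkt1-22. At least 2-fold lower with siAkt1-22 were 6 of the 33 tested members (18.2%), against 5.97% of all genes tested: SLC2A1, PFKFB2, PDK1, BNIP3L, ERO1A and LOX. No member was at least 2-fold higher there, against 4.4% of all genes. With siAkt1-58, no member was at least 2-fold lower, against 3.58% of all genes, and 1 was higher (DDIT4), against 1.54%. None met the limit with both siRNAs in either direction, where 0.736% of all genes were higher and 1.17% lower. These are counts by size in single libraries without a test. Because the members were chosen with earlier results known, their shares beside those of all genes are a description only. With the probe sets of each gene averaged in place of the brightest, 2 members were at least 2-fold lower with siAkt1-22, SLC2A1 (-1.26) and PDK1 (-1.01). The share of all genes under that averaging was not computed, so 5.97% is not its counterpart. The 6 lower members rest on the siAkt1-22 library, in which the poly-A spikes, ACTB and AKT2 were lower too, and the part of these in the result was not tested. In RNA from a whole culture, fewer cells that express a gene and less RNA per cell cannot be told apart.

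**Figure D1:**
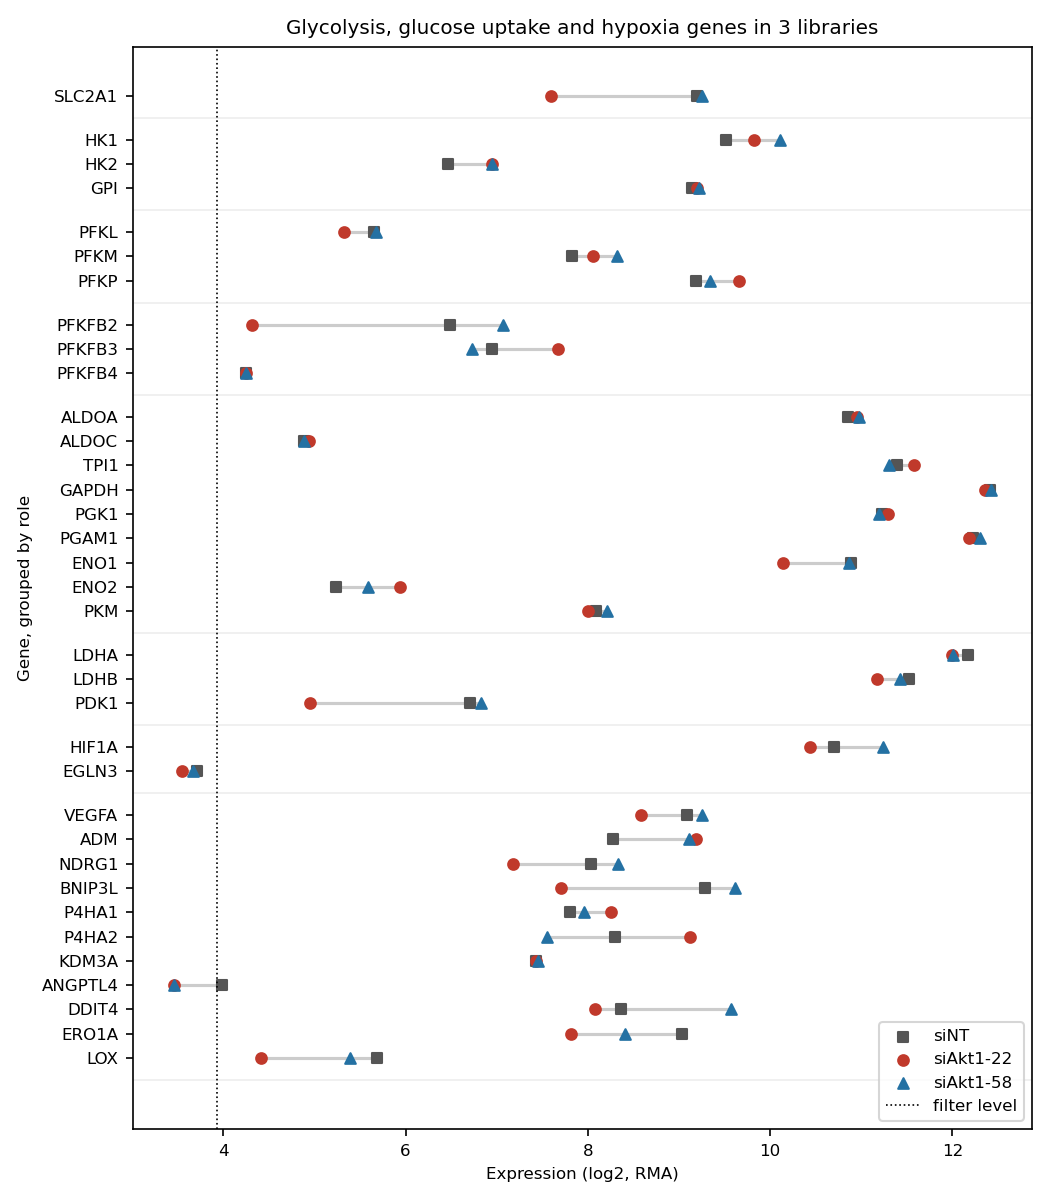
Log2 expression (horizontal axis) of the 35 measured members (vertical axis, grouped by role) in the siNT (square), siAkt1-22 (circle) and siAkt1-58 (triangle) libraries, 1 library each, with the filter level of 3.93 dotted. SLC2A1, PFKFB2, PDK1 and BNIP3L show a siAkt1-22 value well to the left of the others, and the trunk enzymes ALDOA, GAPDH, PGK1 and PGAM1 overlap.

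Over the 33 members the median difference was -0.034 with siAkt1-22 and 0.081 with siAkt1-58, against 0 and 0 over all genes tested. The median size of the difference, regardless of sign, was 0.35 and 0.15 for the members and 0.24 and 0.17 for all genes. With a difference under 0.05 taken as level, 9 members lay above siNT with both siRNAs (25.7% of all genes did), 4 lay below with both (18.1%) and 2 were level with both (17.9%). The remaining 12 stood on opposite sides of siNT (36.4%, against 19.8% of all genes) and 6 departed with 1 siRNA only. Setting the siAkt1 pair against siNT, limma passed 0 of 12779 genes (0% called, two-sided, Benjamini-Hochberg adjusted p under 0.05), with 954 genes at an unadjusted p under 0.05. Among the members, 3 had such an unadjusted p (HK2, ADM and LDHA), and the lowest adjusted p was 0.607. That test has 1 residual degree of freedom and measures only the spread between the siAkt1-22 and siAkt1-58 libraries, which received different siRNAs. The lone siNT library is assumed to vary alike. The test therefore cannot show that members kept their level.

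**Figure D2:**
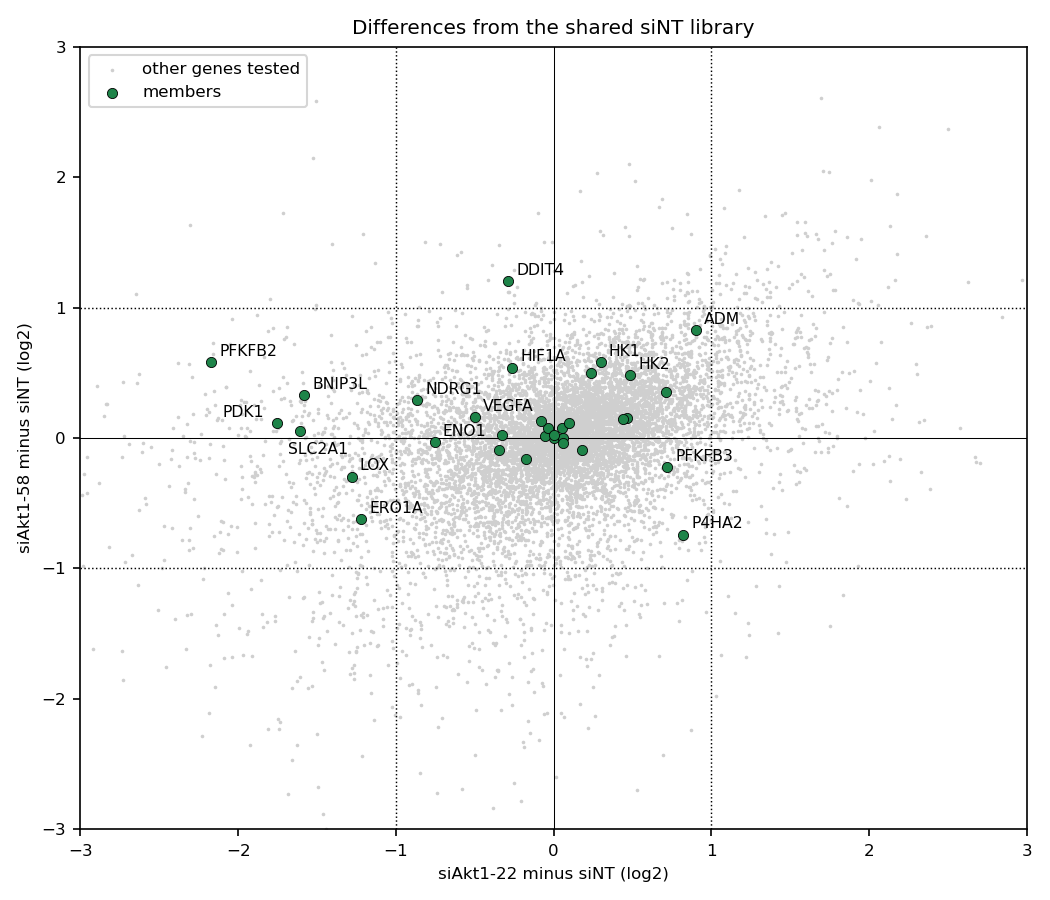
Log2 difference from siNT with siAkt1-22 (horizontal axis) and siAkt1-58 (vertical axis) for the 33 tested members (green) and the other genes tested (grey); dotted lines mark 2-fold, and 32 genes lie outside the plotted range of 3 on either side. Several members lie beyond 2-fold on the left with little difference vertically, and no member lies beyond the 2-fold lines of both axes; the axes share the siNT library.

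Since ACGTG is the core of the hypoxia response element, the promoters of the members were searched for it on both strands, in the 250 bases before each RefSeq start (GRCh38.p14). Windows were found for 33 of the 39 members (NDRG1, VEGFA, PFKFB2, BNIP3L, SLC2A3 and SLC16A1 had none). Stretches are shown for 5 members picked after their values had been seen, glycolytic enzymes first, to let the letters be read in place. Capitals mark each ACGTG or its complement CACGT, read 5′ to 3′ along the gene's strand.
PGK1: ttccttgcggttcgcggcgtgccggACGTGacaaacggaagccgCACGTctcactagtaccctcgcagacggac
LDHA: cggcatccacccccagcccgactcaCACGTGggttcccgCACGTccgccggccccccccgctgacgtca
LOX: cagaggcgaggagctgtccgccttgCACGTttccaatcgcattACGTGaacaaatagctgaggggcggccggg
ERO1A: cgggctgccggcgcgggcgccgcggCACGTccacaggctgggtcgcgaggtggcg
DDIT4: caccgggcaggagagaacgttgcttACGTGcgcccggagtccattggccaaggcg
The PGK1 stretch is chrX:78104021-78104094 on the plus strand, the LDHA stretch chr11:18394451-18394519 on the plus strand, the LOX stretch chr5:122078328-122078400 on the minus strand, the ERO1A stretch chr14:52695643-52695697 on the minus strand and the DDIT4 stretch chr10:72273774-72273828 on the plus strand. All lie upstream of the annotated gene.

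ACGTG was found before a start of 20 of the 33 members with a window (60.6%). The share was 21.7% of 27305 genes with a window and 28.2% of those among the genes tested here. A gene counted if any of its starts had the letters, so more starts gave more chances. The members had 63 windows, and the 27305 genes had 35116. GAPDH, GPI, PDK1, PFKFB3, PFKM, PFKP, SLC16A3 and TPI1 had no such stretch wholly upstream of the annotated gene. The palindrome CACGTG holds ACGTG on both strands and is also the E-box read by MYC and MondoA. It stood before 6 members (18.2%): ALDOA, ALDOC, GAPDH, HK2, LDHA and PFKFB3. The share was 7.73% of all genes and 11.1% of those among the genes tested here. The FOXO core TGTTTAC was found before 0 of 33 members and 3.66% of all genes. The members were listed as glycolytic and hypoxia genes, many of them known HIF targets, so the share is a description of the list. Members with and without the letters can be set side by side. The 17 tested members with ACGTG had medians of 0.060 with siAkt1-22 and 0.077 with siAkt1-58, with 3 at least 2-fold lower with siAkt1-22 (5.97% of all genes were) and 1, DDIT4, at least 2-fold higher with siAkt1-58 (1.54%). The 12 without it had medians of -0.056 and 0.037, with 1, SLC2A1, at least 2-fold lower with siAkt1-22 and 0 higher with siAkt1-58. PFKFB2 and BNIP3L, also at least 2-fold lower with siAkt1-22, had no window and fall in neither group. Sequence beyond 250 bases was not searched, so members without the letters here may carry them elsewhere.

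Of the 2 glucose transporters among the members, 1 could be measured as a gene. SLC2A1, which encodes GLUT1, the transporter for basal glucose uptake, read 9.20 with siNT, 7.60 with siAkt1-22 and 9.25 with siAkt1-58. It was thus 3.04-fold lower with siAkt1-22, at percentile 2.11 of all genes tested, and 0.052 above siNT with siAkt1-58, a difference that only just counts as a departure. All 4 SLC2A1 probe sets were lower with siAkt1-22, by -1.61 to -0.57, and none lay more than 0.089 from siNT with siAkt1-58. SLC2A3, the gene of the neuronal-type transporter GLUT3, shares each of its 5 probe sets with SLC2A14 and cannot be told apart from it.

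Hexokinases, which trap glucose as glucose 6-phosphate, were higher with both siRNAs. HK1 read 9.52 with siNT, 9.82 with siAkt1-22 and 10.1 with siAkt1-58, or 0.44 ± 0.20 above siNT on average (SD, n = 2), and all 4 of its probe sets lay above siNT with both siRNAs. HK2, the inducible form, read 6.47 and then 6.95 in both siAkt1 libraries, 1.40-fold higher. Those equal values give it the lowest unadjusted limma p among the members (0.00629, adjusted p = 0.607); exact ties were frequent, with 20.7% of probe sets equal in all 3 libraries, and the other HK2 probe set differed by 0.016 and 0. GPI, the isomerase of the next step, was within 0.077 of siNT in both.

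Phosphofructokinase, the committed step, is a tetramer of PFKL, PFKM and PFKP subunits. PFKM read 7.82, 8.06 and 8.32 with siNT, siAkt1-22 and siAkt1-58, and PFKP 9.19, 9.66 and 9.34, so both were higher with either siRNA, by at most 1.41-fold. PFKL was at -0.33 and 0.023. None of the 3 subunits reached the 1.5-fold limit.

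The enzymes that make and remove fructose 2,6-bisphosphate, the activator of phosphofructokinase, differed from each other. PFKFB2, an isoform that AKT is known to phosphorylate, read 6.48 with siNT, 4.31 with siAkt1-22 and 7.07 with siAkt1-58. The siAkt1-22 value was 4.50-fold lower and the siAkt1-58 value 0.58 higher, with 2.75 between the siRNAs, the widest gap of the 33 members. It rests on 1 probe set: the other 5 were dim (mean log2 at or below 4.06) and showed at most 0.037 in either library. PFKFB3, the isoform with strong kinase activity in proliferating cells, had the opposite order, with 6.95, 7.67 and 6.73. The other PFKFB3 probe set above the filter level read the same in all 3 libraries, as did PFKFB4.

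From aldolase to pyruvate kinase 7 of the 9 measured genes lay within 0.2 of siNT with both siRNAs in their brightest probe sets. The share of all genes within 0.2 with both was not computed, so that count is a description only. Over all genes tested the median size of the difference was 0.24 with siAkt1-22 and 0.17 with siAkt1-58. Level with both siRNAs were 0 of the 9, against 17.9% of all genes. ALDOA, the main aldolase, was at 0.095 and 0.12, ALDOC at 0.060 and 0, and triose phosphate isomerase TPI1 at 0.18 and -0.095. GAPDH read 12.4 in all libraries, with differences of -0.054 and 0.016. PGK1, the kinase of the first ATP-yielding step, was at 0.059 and -0.040, and its 9 probe sets lay between -0.0050 and 0.12 with siAkt1-22 and between -0.042 and 0 with siAkt1-58. PGAM1 stood at -0.034 and 0.081 in its brightest probe set, but up to 0.31 with siAkt1-58 in the others and 0.18 on average. PKM, the pyruvate kinase gene, was at -0.078 and 0.13. A brighter probe set, annotated to PKM and to PKM2, a symbol also used for PKM, was left out because it carried more than 1 symbol. That probe set read 9.13 with siNT, 8.96 with siAkt1-22 and 9.29 with siAkt1-58, or -0.17 and 0.16.

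The enolases were the other two. ENO1, the ubiquitous form, read 10.9 with siNT, 10.1 with siAkt1-22 and 10.9 with siAkt1-58, 1.69-fold lower with siAkt1-22 alone; its second probe set gave -0.74 and -0.031. A further probe set shared by ENO1 and EDARADD gave -0.72 and 0.11, but one shared with TMEM11 read 7.94 in all libraries. ENO2, the neuronal form and a known HIF target, was higher in both, with 5.23, 5.94 and 5.58, on average 0.53 ± 0.25 above siNT (SD, n = 2).

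Lactate dehydrogenase interconverts pyruvate and lactate. LDHA, the muscle-type subunit, read 12.17 with siNT, 12.00 with siAkt1-22 and 12.01 with siAkt1-58. Its brightest probe set differed by -0.17 ± 0.0072 (SD, n = 2), and all 4 were lower in both libraries. Averaged over them, LDHA was at -0.23 with siAkt1-22 and -0.15 with siAkt1-58, less even than the brightest alone. The unadjusted limma p of the brightest was 0.0321 (adjusted p = 0.614). LDHB, the heart-type subunit, was at -0.35 and -0.090.

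PDK1, a kinase that inhibits pyruvate dehydrogenase, read 6.71 with siNT, 4.96 with siAkt1-22 and 6.82 with siAkt1-58. That made it 3.37-fold lower with siAkt1-22 alone, at percentile 1.65 of all genes tested. A second probe set, below the filter level, stood at -0.27 and 0.22.

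HIF1A mRNA lay on opposite sides of siNT, with 10.7 for siNT, 10.4 for siAkt1-22 and 11.2 for siAkt1-58. All 8 of its probe sets had this order, from -0.77 to -0.26 with siAkt1-22 and from 0.54 to 0.90 with siAkt1-58. EGLN3, a HIF prolyl hydroxylase that is itself hypoxia-induced, was below the filter level at 3.71, 3.54 and 3.66.

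**Figure D3:**
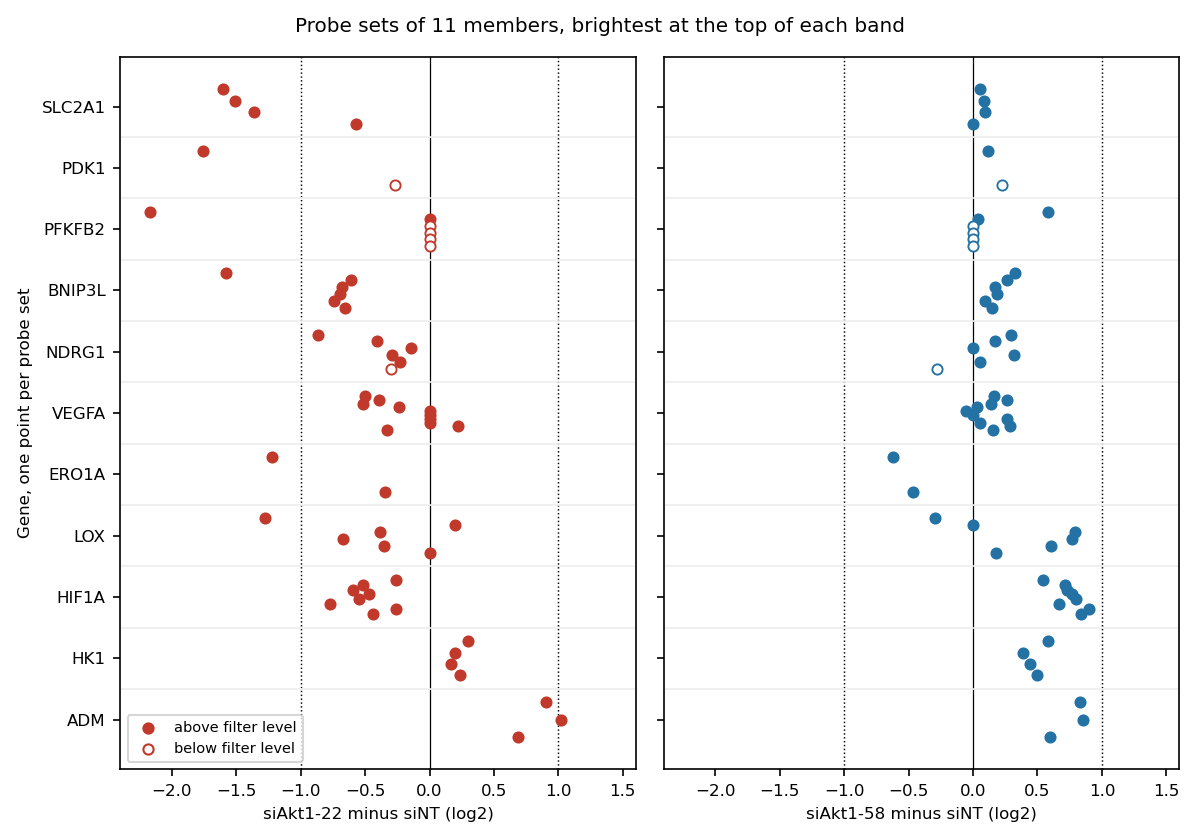
Log2 difference from siNT with siAkt1-22 (left) and siAkt1-58 (right) for every probe set of 11 members (vertical axis), the brightest uppermost in each band; open points lie below the filter level and dotted lines mark 2-fold. The probe sets of SLC2A1, HIF1A, HK1 and ADM keep to one side of 0 or lie at 0 in each library, and those of LOX fall on both sides.

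Of the 12 hypoxia target genes 11 were measured and 10 tested. ADM, the vasodilator peptide adrenomedullin, was the member with the highest mean difference, reading 8.28 with siNT, 9.18 with siAkt1-22 and 9.11 with siAkt1-58. Both siAkt1 values lay above siNT and close together, with a mean difference of 0.87 ± 0.054 (SD, n = 2). The unadjusted limma p was 0.014 (adjusted p = 0.607). Its 3 probe sets gave 0.69 to 1.02 and 0.60 to 0.86. At a 1.5-fold limit it was the only member higher with both siRNAs, where 3.2% of all genes were.

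ERO1A, the endoplasmic reticulum oxidase that drives disulfide formation, was the counterpart on the lower side, with 9.03, 7.81 and 8.41. The deficit was 2.33-fold for siAkt1-22 and 1.54-fold for siAkt1-58, which made it the only member past 1.5-fold lower in both, where 3.58% of all genes were. Its dimmer probe set gave -0.34 and -0.47, which keeps the direction and reduces the size. Averaged over its probe sets ERO1A stood at -0.78 and -0.55. Neither the 2-fold call with siAkt1-22 nor the 1.5-fold call with siAkt1-58 (a log2 limit of 0.58) then held.

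BNIP3L, the mitophagy receptor NIX, read 9.28 with siNT, 7.70 with siAkt1-22 and 9.61 with siAkt1-58. The brightest probe set was 2.99-fold lower with siAkt1-22, and the other 5 were lower too but by less, with an average over all 6 of -0.83. With siAkt1-58 all 6 lay slightly above siNT (0.090 to 0.33).

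NDRG1, a stress-responsive growth regulator, and VEGFA, the angiogenic growth factor, followed the same order at smaller size. NDRG1 read 8.04, 7.17 and 8.33, and VEGFA 9.09, 8.59 and 9.25. In NDRG1 all 5 probe sets above the filter level were lower with siAkt1-22, and the average over its probe sets was -0.37. In VEGFA 5 of 10 were lower there, 1 was higher and the rest lay within 0.05 of siNT, with an average of -0.17.

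DDIT4, the mTORC1 inhibitor REDD1, read 8.37 with siNT, 8.08 with siAkt1-22 and 9.57 with siAkt1-58. It was 2.30-fold higher with siAkt1-58, at percentile 99.2 of all genes, and slightly lower (-0.29) with siAkt1-22; it had 1 probe set.

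The genes of collagen processing differed from each other. Of the prolyl 4-hydroxylase subunits, P4HA1 was at 0.44 and 0.14, while P4HA2 read 8.30, 9.12 and 7.56, higher with siAkt1-22 by 1.77-fold and lower with siAkt1-58 by 1.67-fold. LOX, the collagen cross-linking oxidase, was at -1.28 and -0.30 in its brightest probe set, but its 6 sets ran from -1.28 to 0.19 with siAkt1-22 and from -0.30 to 0.79 with siAkt1-58. Averaged over its probe sets it stood at -0.42 and 0.34, so neither the 2-fold call nor the direction with siAkt1-58 held.

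KDM3A, a histone demethylase, was within 0.022 of siNT in both libraries at its brightest probe set, while dimmer ones reached -0.27 with siAkt1-22. ANGPTL4, a lipoprotein lipase inhibitor left out of the tests for its mean level, read 3.98 with siNT and 3.46 with each siAkt1 siRNA.

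The siAkt1 libraries were also set against each other, which leaves siNT out. With siAkt1-58, 6 members were at least 2-fold higher than with siAkt1-22 (5.28% of all genes were): PFKFB2, BNIP3L, PDK1, SLC2A1, DDIT4 and NDRG1. Only P4HA2 was at least 2-fold lower, against 5% of all genes. LOX fell just short at 0.98. HIF1A, at 0.80, stood on the same side.

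The rest of the pathway was described from lists of related genes that were chosen with earlier results known. Of 40 further glycolysis and pyruvate genes 28 were tested, with medians of 0.034 and 0; 8 were above siNT with both siRNAs (28.6%, against 25.7% of all genes), 4 below (14.3%, against 18.1%) and 0 at least 2-fold with both. SLC2A12, a further glucose transporter, was at 2.27 and 0.89. Of 16 genes of the pentose phosphate and glycogen branches 12 were tested, with medians of 0.25 and 0.14; 8 of them lay above siNT with both siRNAs (66.7%, against 25.7% of all genes) and 1 below. PGLS, the lactonase of the oxidative branch, was at 1.25 and 0.55, and PYGL, the liver-type glycogen phosphorylase, at 0.31 and 0.79.

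Among 18 HIF pathway regulators, all tested, the medians were -0.033 and 0.12, with 5 above (27.8%) and 4 below (22.2%) siNT in both, against 25.7% and 18.1% of all genes. VHL, the capture subunit of the HIF ubiquitin ligase, was at 0.53 and 0.78 in its brightest probe set and 0.026 and 0.29 in the other, and SIAH2, a ligase that degrades EGLN proteins, at -0.65 and -1.21. EGLN1, the main HIF prolyl hydroxylase, was at -1.23 and 0.49, and the asparaginyl hydroxylase HIF1AN at 0.58 and -1.16; these 2 genes were picked out after their values had been seen.

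Of 39 further hypoxia targets 31 were tested, with medians of 0 and 0. Of these, 10 were above (32.3%) and 7 below (22.6%) siNT in both, against 25.7% and 18.1% of all genes. KDM5B (0.57 and 1.22) and KDM4B (0.39 and 0.70), histone demethylases, and FAM162A (0.68 and 0.43) were higher in their brightest probe sets. Averaged over probe sets, KDM4B was at 0.099 and 0.23 and FAM162A at 0.36 and 0.22. The 2 genes at least 2-fold lower in both (6.45%, against 1.17% of all genes) were IGFBP3 (-2.23 and -2.29) and the collagen lysyl hydroxylase PLOD2 (-1.03 and -1.55), the latter with all 4 probe sets lower. IGFBP3 read 3.99 with siAkt1-22 and 3.93 with siAkt1-58, close to the filter level. Its other probe set gave -1.18 and -1.09. STC2, a stanniocalcin, was at -0.63 and -0.67 in its brightest probe set, but other sets reached 0.60 and 0.25. The 5 tested genes of the glucose-sensing MondoA group had medians of 0.051 and 0.079. TXNIP, which restrains glucose uptake through GLUT1, was at 2.18 and 1.87, with all 5 probe sets higher in both. Outside the naming rule, its relative ARRDC4 was at -0.38 and 0 and MLXIP, which encodes MondoA, at -1.23 and 0.41.

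**Figure D4:**
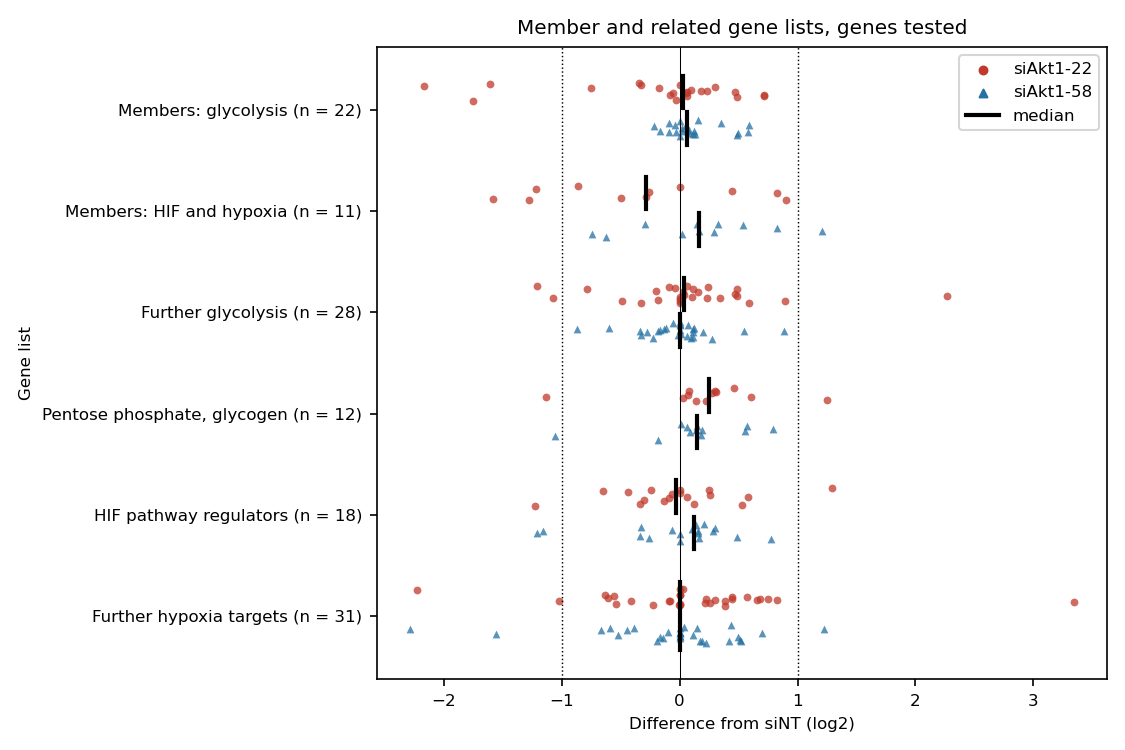
Log2 difference from siNT (horizontal axis) with siAkt1-22 (circles) and siAkt1-58 (triangles) for the tested genes of 6 lists (vertical axis), with the median as a bar and 2-fold dotted. The HIF and hypoxia members have medians of -0.29 with siAkt1-22 and 0.16 with siAkt1-58, while the further hypoxia targets have medians at 0 with both.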

How the data were processed

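Libraries (1 siNT, 2 siAkt1) were made from 10 ng total RNA by 3' IVT amplification, which reads the 3' ends of transcripts, per the labels' protocols. The authors deposited log2 expression values per probe set; the submitters' processing notes name RMA, with version and settings not given in the sources used here. RMA equalises the distributions of the arrays, and 20.7% of probe sets were exactly equal in all 3 libraries.

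Of 49386 probe sets, 45253 carried 1 gene in the platform annotation (symbols updated through Entrez identifiers for 45172); 93 controls and 1327 with several genes were left out. Values below the filter level understate differences. Differences were computed in Python 3.11.15. The fit of the siAkt1 pair against siNT used lmFit and eBayes of limma 3.58.1 under R 4.3.3, with a prior of 0.467 degrees of freedom. Genes outside the list were named by a rule: per related list, up to 3 on each side with at least 0.3 in both libraries. Members and lists were chosen with earlier results of these data known. The steps were tested on simulated data. Alternatives were averaged probe sets, median centring, quantile normalization, a loess correction, other filters, a 1.5-fold limit, other eBayes settings and each siAkt1 library left out. Promoter sequences came from RefSeq.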

Additional observations from a re-analysis of the deposited data

Results flagged for a closer look

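Probe sets shared by SLC2A3 and SLC2A14 were outside the comparison by gene, and 2 of the 5 were more than 2-fold higher than siNT in the siAkt1-58 library. In siNT, siAkt1-22 and siAkt1-58 order, the first read 3.53, 3.91 and 5.50, which is 1.97 above siNT for siAkt1-58. The second read 3.28, 3.44 and 4.50, which is 1.22 above siNT for siAkt1-58. The other 3 showed at most 0.092 in either library. The siNT values of these 2 probe sets lie below the filter level, and which of the genes gave the signal was not tested.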

How the results depend on the processing

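Averaging the probe sets of a gene left 2 members at least 2-fold lower with siAkt1-22 in place of 6, namely SLC2A1 (-1.26) and PDK1 (-1.01). The matching count of all genes with siAkt1-22 alone was not made. With both siRNAs, averaging gave 43 genes in all at least 2-fold higher and 99 genes lower, in place of 94 and 150. With a 1.5-fold limit, 1 of the 33 tested members was higher (ADM) and 1 lower (ERO1A, but not when averaged) with both siRNAs. The counts over all 12779 genes were 409 and 458. With siAkt1-22, 4 members were higher and 8 lower, against 1574 and 1536 of all genes. With siAkt1-58, 2 members were higher and 2 lower, against 841 and 1117 of all genes. With either siAkt1 library left out, the rule for both siRNAs becomes the count in the remaining siAkt1 library, so it is no separate check. Those counts were 197 to 562 genes higher and 457 to 763 genes lower, and 0 to 1 members higher and 0 to 6 members lower. Under median centring, quantile normalization, a loess correction and other filters the member counts stayed within 1.5 times. Small differences crossed 0, none of them tested: with siAkt1-58 GAPDH (-0.0065 under quantile, -0.0072 under loess), PFKL (-0.0061) and KDM3A (-0.0011) under loess and AKT2 (0.0060) under quantile, and with siAkt1-22 PGK1 (-0.0042) under loess. The median of the members' mean difference, 0.024, was -0.016 under loess. Averaging turned PGAM1 (0.0077) and STC2 (0.15) with siAkt1-22 and LOX (0.34) with siAkt1-58. Limma without either siAkt1 library was not run, because no residual degree of freedom is left; its count was 0 under each of the other settings run. No paired analysis was possible because siNT has 1 library. With 1 array per siRNA, dim probe sets limit PFKFB2, PDK1 and LOX.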
